A study of Mus musculus with 6 samples.

Results

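Endothelial cells line blood vessels, and in the mouse embryo at embryonic day 10.5 vessels form close to the presomitic mesoderm, the tail tissue that buds off the somites. The endothelial genes described here are Kdr, Flt1, Tek, Tie1, Pecam1, Cdh5, Emcn, Egfl7, Tal1 and Lyve1, 10 genes chosen by name as markers of vessels and of their early progenitors. Of these, 9 have an array probe that the annotation assigns to 1 gene, out of 13840 genes with such a probe, and each of the 9 has a single such probe. Readings of Flt1 are not analysed here.

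The vascular endothelial growth factor receptors pass the signal that specifies endothelial cells and makes vessels sprout, and the angiopoietin receptors stabilise the vessels once formed. Notch signalling divides sprouting endothelium into leading and trailing cells and sets arterial identity. Nrarp, an ankyrin-repeat protein that Notch induces and that acts back on Notch, is known from retinal vessels of the mouse and from zebrafish to influence how stable new vessel branches are.

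Nrarp knockout embryos were those in which LacZ stands in place of the Nrarp coding region in every cell of the animal, and the controls were wild-type littermates from crosses of heterozygous parents. Presomitic mesoderm was dissected at embryonic day 10.5, and 12 such tissues were collected for each genotype. Each genotype has 3 one-colour arrays, numbered 1 to 3. The labels do not say how the tissues were divided among arrays. In tests without a replicate term, the spread behind each p-value is that between arrays of a genotype. With the replicate number in the fit, it is what remains after genotype and number. Either spread may be technical. Whole tissue was measured, so fewer endothelial cells and less RNA per endothelial cell cannot be told apart, nor can an effect within vessels be told from one of the mesoderm around them.

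Promoter windows of the endothelial genes were searched for short motifs. RefSeq windows of 300 bases (build GRCm38.p6) exist for 7 of the 10 genes, with 10 windows in all because Egfl7 and Tal1 have several annotated starts. Both strands were searched for 4 motifs. CCGGAA is a core bound by ETS factors, which switch on endothelial genes. A second ETS core searched was CAGGAA. The core bound by the Notch effector RBPJ was searched as TGGGAA. For GATA factors the core was AGATAA. Overlapping matches were all counted. The 4 windows below belong to genes whose readings separated replicate 1 from the other arrays, Kdr and Emcn downwards and Tek and Tie1 upwards, and capitals mark the matches.
Kdr, chr5:75978406-75978705, minus strand: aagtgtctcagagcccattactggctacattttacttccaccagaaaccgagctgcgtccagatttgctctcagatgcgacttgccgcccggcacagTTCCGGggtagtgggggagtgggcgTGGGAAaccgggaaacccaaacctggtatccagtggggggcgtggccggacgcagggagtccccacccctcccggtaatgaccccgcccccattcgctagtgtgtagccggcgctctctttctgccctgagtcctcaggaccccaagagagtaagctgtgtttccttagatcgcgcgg
Emcn, chr3:137340828-137341127, plus strand: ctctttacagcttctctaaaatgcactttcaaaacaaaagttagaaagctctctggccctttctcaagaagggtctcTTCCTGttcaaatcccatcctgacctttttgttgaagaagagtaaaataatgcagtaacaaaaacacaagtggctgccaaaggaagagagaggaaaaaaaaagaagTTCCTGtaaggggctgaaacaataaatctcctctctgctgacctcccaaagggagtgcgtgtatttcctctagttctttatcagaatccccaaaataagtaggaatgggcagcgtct
Tek, chr4:94739039-94739338, plus strand: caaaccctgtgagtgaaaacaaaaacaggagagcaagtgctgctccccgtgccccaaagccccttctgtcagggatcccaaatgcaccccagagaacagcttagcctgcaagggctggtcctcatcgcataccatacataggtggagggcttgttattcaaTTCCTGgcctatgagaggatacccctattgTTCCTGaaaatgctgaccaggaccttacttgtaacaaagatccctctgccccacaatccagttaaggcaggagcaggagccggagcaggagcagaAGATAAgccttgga
Tie1, chr4:118489800-118490099, minus strand: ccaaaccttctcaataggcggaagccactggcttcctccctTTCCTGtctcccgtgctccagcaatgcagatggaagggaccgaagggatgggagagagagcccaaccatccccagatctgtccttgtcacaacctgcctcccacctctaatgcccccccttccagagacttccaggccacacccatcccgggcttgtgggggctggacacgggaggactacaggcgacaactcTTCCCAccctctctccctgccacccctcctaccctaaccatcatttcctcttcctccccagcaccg

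An ETS core stood in 6 of the 10 windows, against 41.4% of all 32851 promoter windows of the same length. Kdr held 1, Emcn 2, Tek 2 and Tie1 1, all on the strand opposite to the one printed. The RBPJ core stood in 4 windows (Kdr, Tie1, the most upstream start of Egfl7 and of Tal1), against 25.6% of all windows, and the GATA core in 2 (Tek and Tal1), against 11.2%. No single motif separated the genes that read lower on replicate 1 from those that read higher. The genes are few and were sorted by a direction seen in these data, so nothing follows from this comparison. These are matches of letters and not measured binding sites.

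The genes lie on several chromosomes, Kdr and Flt1 on chromosome 5, Tek, Tie1 and Tal1 on chromosome 4, Emcn on 3, Lyve1 on 7, Cdh5 on 8 and Pecam1 on 11. Egfl7 lies on chromosome 2, as does Nrarp, with 70 protein-coding genes between them in the RefSeq order of GRCm38.p6. The Egfl7 gene also contains the microRNA gene Mir126a, whose product is known as an endothelial regulator. Its mature 3′ arm lies at chr2:26591402-26591423 on the plus strand and is shown with the seed, bases 2 to 8, in capitals, because the Egfl7 probe reports the host gene and not this RNA.
mmu-miR-126a-3p: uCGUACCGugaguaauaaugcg

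The values are scaled intensities, a unit without a physical scale in which each array's median lies just under 1. The 75th percentiles were 9.71 and 8.88 on the replicate 1 arrays of knockout and wild type and 4.90 to 5.88 on the other 4. Because the unit has no physical scale, differences are taken within a probe. Bright and dim refer to the array medians, and sums over a list, given for some cell markers, weigh the brightest probes most. The Nrarp probe read 14.3, 42.5 and 23.3 in the knockout, against 318, 429 and 448 in wild type, so the groups did not overlap. Markers of presomitic mesoderm were bright in both genotypes. All 11 measured ones lay above the median of every array, among them Tbx6, Dll3 and Wnt3a.

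Kdr encodes the main receptor for vascular endothelial growth factor and is the earliest of these markers, present in mesoderm before vessels form. It read 47.9, 65.9 and 66.4 in knockout tissue, against 50.5, 96.1 and 74.4 in wild type. The replicate 1 arrays were the lowest of both groups, and the groups overlapped. The log2 difference, knockout minus wild type, was -0.26. It was negative in all 3 replicate pairs, at -0.08, -0.54 and -0.16. In limma the adjusted p over all probes was 1.00 without a replicate term, and 0.999 with the replicate number as a block (log2 SE 0.128). The 95% interval of the blocked fit reached from -0.55 to 0.03.

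Tek and Tie1 encode the angiopoietin receptor and its partner receptor, a related tyrosine kinase. Tek read 6.01, 0.951 and 2.43 in the knockout, against 4.24, 2.00 and 1.25 in wild type. Replicate 1 was the highest array of each group, and the order of replicates 2 and 3 was opposite in knockout and wild type. The pairs gave log2 differences of 0.50, -1.07 and 0.95, with a mean of 0.13 (limma adjusted p = 1.00, 95% interval with the block -0.82 to 1.07).

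Tie1 read 2.55, 0.624 and 0.789 in the knockout, against 2.15, 0.580 and 0.600 in wild type. Only the replicate 1 arrays lay above their medians. Tie1 was the single gene of the 9 with a positive difference in every pair, at 0.25, 0.11 and 0.39. The mean was 0.25 with a 95% interval of -0.69 to 1.19 in the blocked limma fit, and the groups overlapped.

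**Figure D1:**
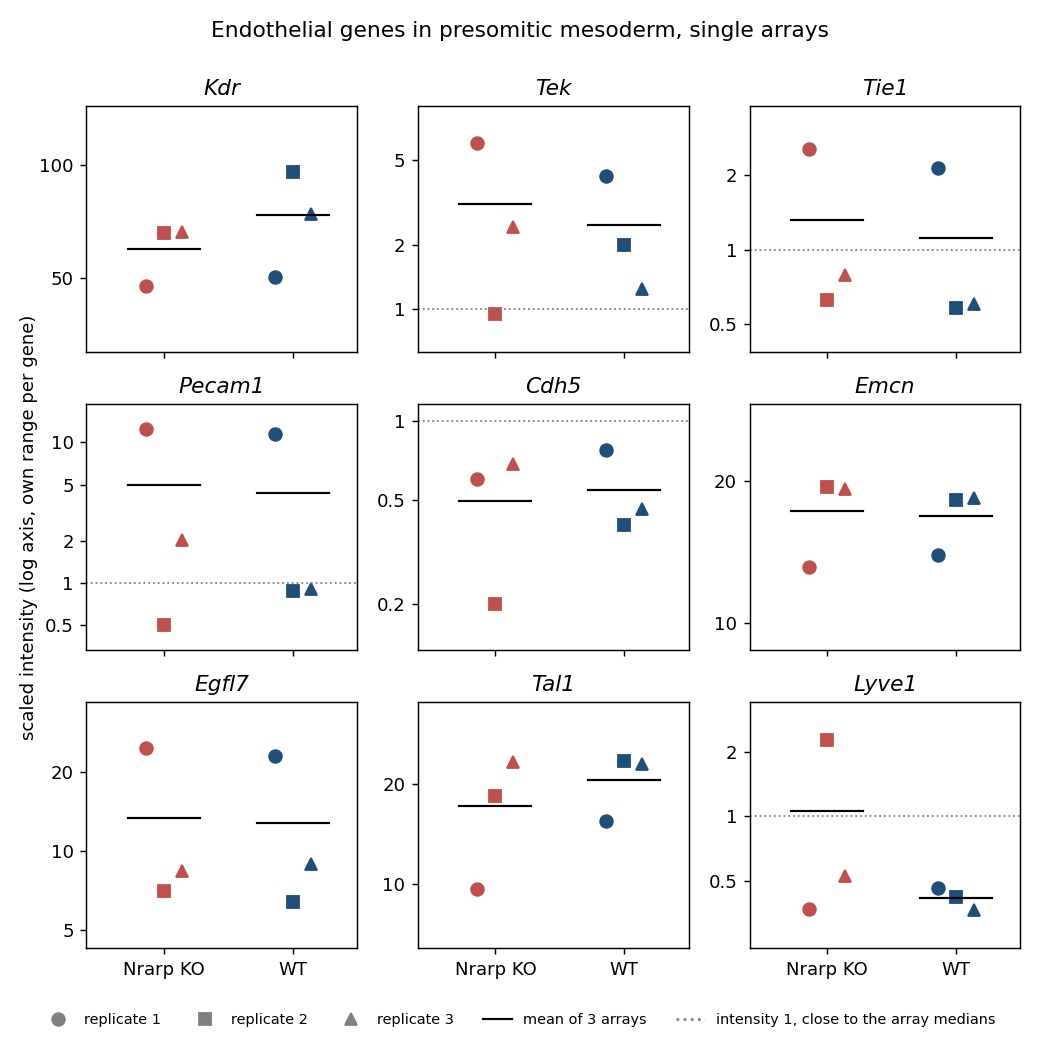
Scaled intensity (log axis, with its own range in each panel) of the 9 measured endothelial genes on each array, Nrarp knockout left and wild type right. Points are single arrays, with the shape giving the replicate number, bars are means of 3 arrays and the dotted line is an intensity of 1. Knockout and wild-type points overlap in all 9 panels, while the circles of replicate 1 stand apart in Kdr, Tek, Tie1, Pecam1, Emcn, Egfl7 and Tal1.

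Pecam1 and Cdh5 encode adhesion molecules at the contacts between endothelial cells, and Emcn encodes endomucin, a surface sialomucin of capillaries and veins. Pecam1 read 12.5, 0.503 and 2.03 in the knockout, against 11.4, 0.873 and 0.914 in wild type. Both replicate 1 arrays were far above the other 4, of which 3 lay below their array medians. The pair differences were 0.13, -0.79 and 1.15 on the log2 scale, with a mean of 0.16 and a 95% interval of -0.75 to 1.07 in the blocked limma fit.

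Cdh5, the gene of the endothelial cadherin, was dim throughout. It read 0.601, 0.201 and 0.684 in the knockout, against 0.776, 0.400 and 0.462 in wild type. All 6 readings lay below the array medians and the groups overlapped. The log2 difference was -0.27 (95% interval -1.38 to 0.84 in the blocked limma fit), a wide interval. A dim reading may come from the probe, and its detection call is not used here.

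Emcn was the steadiest of the 9 genes between genotypes. It read 13.2, 19.4 and 19.2 in the knockout, against 13.9, 18.2 and 18.4 in wild type. The log2 difference was 0.02, and the pairs gave -0.08, 0.09 and 0.06. Its 95% interval in the blocked limma fit runs from 0.810-fold to 1.27-fold of the wild-type level. Without the block the interval was wider, -0.72 to 0.76 on the log2 scale. A change beyond the blocked bounds can still lie inside that wider interval, and one within them could not be detected here.

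Egfl7 encodes a matrix protein secreted by endothelial cells. It read 24.6, 7.05 and 8.39 in the knockout, against 23.0, 6.39 and 8.94 in wild type. The arrays of the same number lay close together, and replicate 1 was the highest in each genotype. The log2 difference was 0.05 with a blocked 95% interval of 0.801-fold to 1.34-fold. Without the block the interval was wider, -1.44 to 1.54 on the log2 scale. The 46 measured genes between Nrarp and Egfl7 had a median log2 difference of -0.02.

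Tal1 encodes a basic helix-loop-helix factor needed for blood and for the endothelium that gives rise to it, and it is not specific to vessels. It read 9.65, 18.4 and 23.3 in the knockout, against 15.5, 23.5 and 22.9 in wild type. Replicate 1 was the lowest array in each genotype, and the groups overlapped. The log2 difference was -0.34, with pair values of -0.68, -0.35 and 0.03 and a 95% interval of -0.72 to 0.05 in the blocked limma fit. Genes of primitive red cells, another lineage that uses Tal1, had a median log2 difference of -0.25, with 10 of 13 negative and 0 past the test. Within pairs 1, 2 and 3 their medians were -0.39, 0.12 and -0.19, opposite in sign to the Tal1 difference in pairs 2 and 3. Whether red cells contribute to the Tal1 reading was not tested.

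Lyve1 encodes a hyaluronan receptor known from lymphatic vessels, yolk sac endothelium and macrophages. It read 0.369, 2.28 and 0.528 in the knockout, against 0.462, 0.422 and 0.365 in wild type. A single array, knockout replicate 2, lay above its median, and the other 5 were dim. The log2 difference of 0.88 had a 95% interval of -0.47 to 2.23 in the blocked limma fit. Without knockout replicate 2 it was 0.09.

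Across the 9 measured genes, 0 passed an adjusted p of 0.05 in limma, with or without the replicate block. At an unadjusted p under 0.05 there were 0 in either fit, where all 33012 probes held 217 without the block and 1238 with it. Over all probes the fit without the block called 0% and the blocked fit 0.00606%. Those 2 were Nrarp and Hes5, a Notch target gene, and without the intensity trend the blocked fit called 0. The log2 difference was above 0 for 6 genes and below 0 for 3. Its median was 0.05, against 0.00 over all named genes. For 0 of the 9 did the genotypes separate, whereas the knockout arrays lay all above the wild-type ones for 2.04% of probes and all below for 1.74%. Kdr and Tie1 were the genes that kept 1 sign in every pair, 1 in each direction. Among all probes 13.2% were higher and 10.5% lower in the knockout in every pair. The exact permutation test of 3 against 3 arrays, which cannot give a p below 0.1 (two-sided), gave 0.4 to 0.9.

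**Figure D2:**
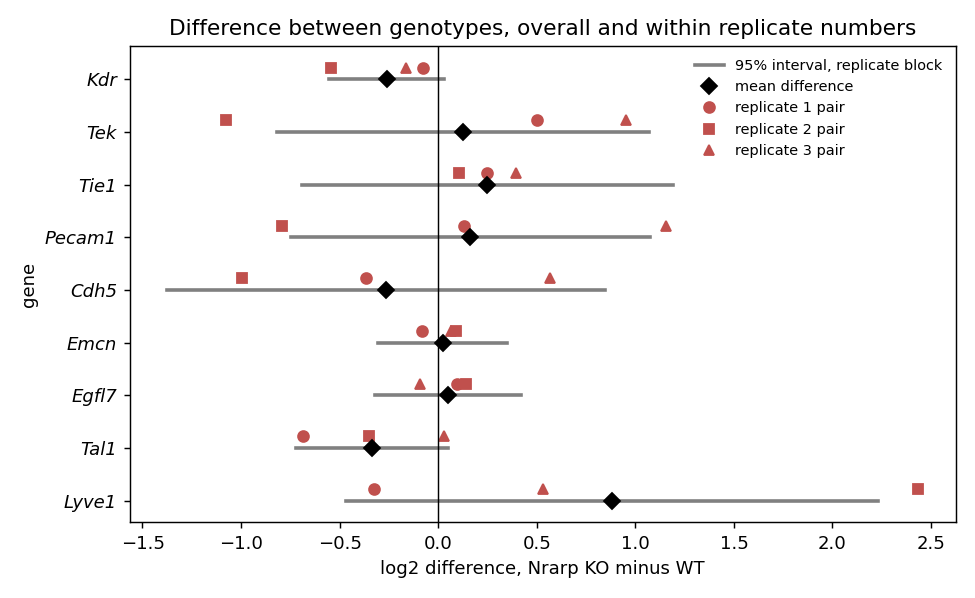
Log2 difference in scaled intensity, knockout minus wild type, for the 9 measured endothelial genes. Diamonds are mean differences, small symbols the differences within replicates 1, 2 and 3, and grey bars the 95% intervals of the limma fit with the replicate block. Every bar includes 0, and the bars of Emcn and Egfl7 are narrow while those of Lyve1 and Cdh5 are wide. Without the block the interval of each gene is wider, that of Egfl7 reaching from -1.44 to 1.54.

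The pair medians over the 9 genes did not share a sign. Arrays 2 and 3 are matched by number only. They were -0.08 within replicate 1, -0.35 within replicate 2 and 0.39 within replicate 3. Pecam1, Cdh5, Tek and Tal1 were lower in the knockout in pair 2 and higher in pair 3, with Tal1 at 0.03 in pair 3. Pecam1, Cdh5 and Tek read lowest of all 6 arrays on knockout replicate 2 (0.503, 0.201 and 0.951). Kdr, Emcn, Egfl7 and Tal1, the 4 genes above the median of every array, did not read lowest there.

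A larger difference lay between replicate numbers, and it split the endothelial genes. The labels do not say what a replicate number stands for. Compared in the same blocked limma fit, chosen after the separation had been seen, 4 genes were higher and 3 lower on replicate 1 than on replicates 2 and 3. Such separation was common on these arrays. Among all 33012 probes 20.0% were called higher and 16.8% lower, and among the 16506 probes above the median probe 38.1% and 15.8%. The count for the endothelial genes is therefore not set apart from the background, and the direction of each gene is given as a description. The all-probe median of this difference was -0.33. The p-values of this comparison rest on the spread between arrays of the same number, after genotype. They do not measure how replicate numbers vary.

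Pecam1 showed the widest gap of the 9. It averaged 12.0 on the replicate 1 arrays and 1.08 on the other 4, a log2 difference of 3.65 (SE 0.425, limma adjusted p = 0.000238). Tie1 differed by 1.86 (adjusted p = 0.0106), Tek by 1.70 (0.0164) and Egfl7 by 1.64 (0.000136). Tal1 differed by -0.84 (adjusted p = 0.00685), Kdr by -0.60 (0.00842) and Emcn by -0.47 (0.0400). Cdh5 (0.78) and Lyve1 (-0.67) did not pass. Without the intensity trend in limma 3 calls were left, Pecam1, Tie1 and Egfl7. Single arrays also decided calls. Without knockout replicate 1 the calls of Tek, Tie1, Emcn and Tal1 were lost, without wild-type replicate 1 those of Kdr, Tie1 and Emcn, and without wild-type replicate 3 those of Tek and Emcn. Emcn also lost its call without knockout replicate 2 or 3. Centring on 75th percentiles ended the calls of Tek and Tie1. The sizes also moved with the scaling. With quantile normalization and with 75th-percentile centring, Emcn differed by -1.18 and -1.25, Tal1 by -1.54 and -1.62, Kdr by -0.95 and -1.38 and Egfl7 by 0.96 and 0.87. Tek differed by 1.15 and 0.93, and Tie1 by 1.75 and 1.09.

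For 7 of the 9 genes the replicate 1 arrays did not overlap the others. They lay above for 4, where 25.2% of all probes did so, and below for 3, where 34.4% did. After quantile normalization between arrays, Kdr, Emcn, Tal1, Pecam1, Tie1 and Egfl7 still passed in the same directions (limma adjusted p = 0.0307 or less), while Tek did not (0.131). Under that scaling 13.3% of all probes were called higher and 13.9% lower. Of the 16506 probes above the median probe, 4088 were called higher and 4498 lower, a larger share. Pecam1 and Egfl7 passed with quantile normalization, with 75th-percentile centring, without the trend and with each array left out, the alternatives run for this contrast.

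Other genes known to mark vessels were set beside the same shares. Of 21 measured genes of the endothelial surface and junctions, 11 were higher and 0 lower on replicate 1 in limma, or 9 higher and 2 lower after quantile normalization. Among all probes the shares were 20.0% and 16.8%, or 13.3% and 13.9% after quantile normalization, and among probes above the median probe 38.1% and 15.8% before it. After it, 4088 of those 16506 brighter probes were called higher and 4498 lower. Cldn5, a tight junction protein, averaged 38.8 on replicate 1 and 8.37 on the others. Cd34, a sialomucin of endothelium and blood progenitors, averaged 25.6 and 5.86. Ramp2, the partner of the adrenomedullin receptor, averaged 22.5 and 4.59. Among 18 measured transcription factor genes of endothelium and its progenitors, 4 were higher and 3 lower, or 2 higher and 5 lower after quantile normalization. The count before quantile normalization is near the all-probe background of 20.0% and 16.8% and is not a result about these genes. Sox18 was higher, at 10.7 against 3.15. Its relative Sox7 was lower, at 12.0 against 30.0, as was Lmo2, a partner of Tal1, at 145 against 254. The 75th percentile of the replicate 1 arrays was itself higher, and its part in these differences was not tested.

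**Figure D3:**
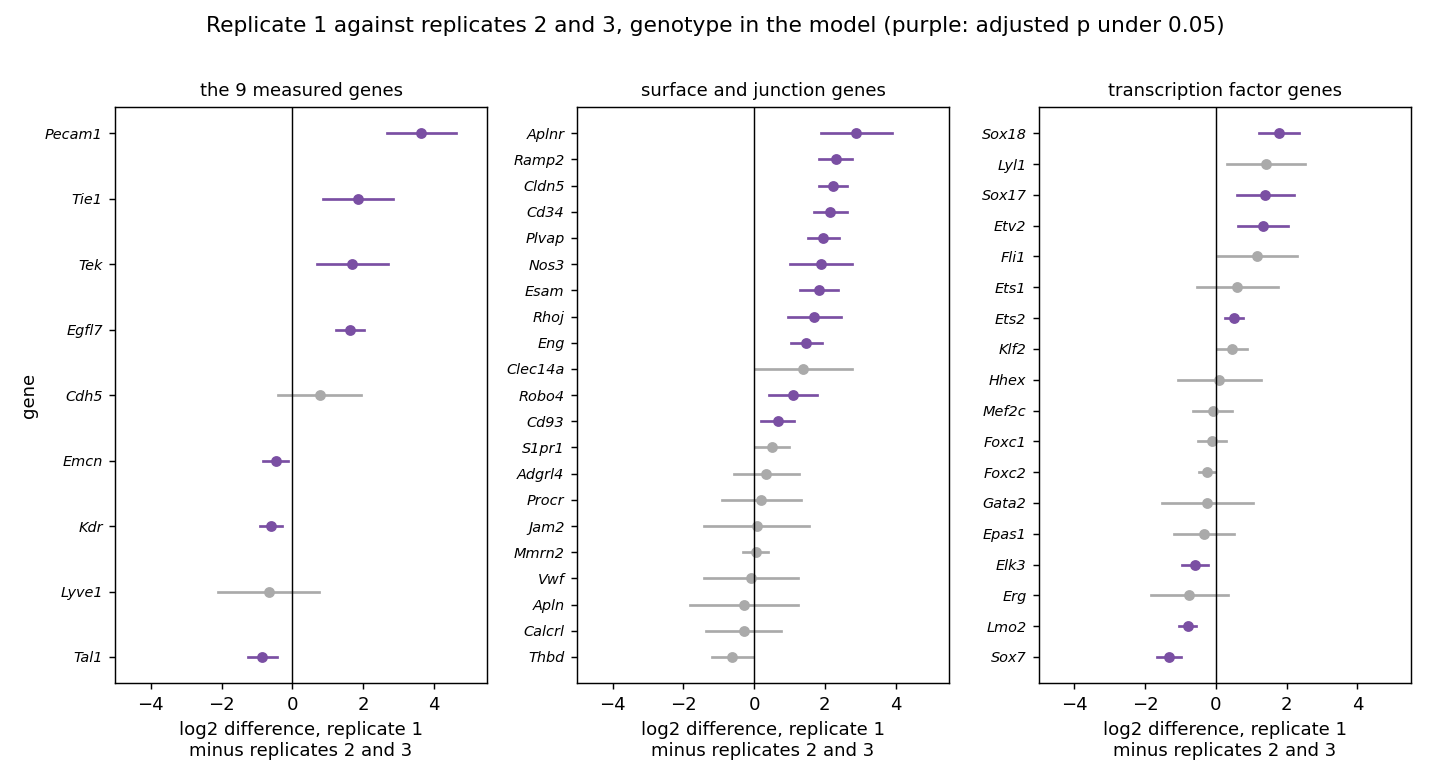
Log2 difference in scaled intensity between replicate 1 and the mean of replicates 2 and 3, with genotype in the limma model, for the 9 measured endothelial genes, 21 surface and junction genes and 18 transcription factor genes. Points are estimates, bars are 95% intervals and purple marks an adjusted p under 0.05. Pecam1, Tie1, Tek and Egfl7 are called right of 0 and Kdr, Emcn and Tal1 left of it. Of the surface and junction genes 11 are called right and 0 left, or 9 and 2 after quantile normalization. Among all probes 20.0% are called right and 16.8% left, or 13.3% and 13.9% after quantile normalization. Among probes above the median probe the shares are 38.1% and 15.8% before it.

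Between genotypes the wider endothelial genes gave 0 calls in limma. Of 39 measured surface, junction and transcription factor genes, 17 had a difference above 0 and 22 one below 0, and the median was -0.02. At an unadjusted p under 0.05 there were 0 without the block and 3 with it. These were Elk3, Mef2c and Nos3. Elk3, an ETS-family repressor, read 22.9, 26.9 and 31.6 in the knockout, against 23.7, 42.7 and 40.9 in wild type (log2 difference -0.36). Mef2c, a factor of endothelium and muscle, read 5.10, 6.84 and 6.59 in the knockout, against 4.64, 3.77 and 4.26 in wild type (0.54). Its groups did not overlap, nor did those of the dim surface gene Calcrl. These were the 2 of the 39 with all knockout arrays higher, against 2.04% of all probes. Nos3, the endothelial nitric oxide synthase, differed by 0.87, with overlapping groups.

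Mmrn2, an extracellular matrix protein of endothelium, read 18.4, 17.0 and 17.4 in the knockout, against 21.8, 19.7 and 24.9 in wild type. All knockout arrays lay below all wild-type arrays, with a log2 difference of -0.33 and an adjusted p of 0.999 in the blocked limma fit. Mmrn2 was the 1 of the 39 genes with all knockout arrays lower, against 1.74% of all probes. With the block, Ets2 (-0.22) and Cldn5 (-0.31) had the next smallest p-values of their lists. None of Elk3, Mef2c, Nos3, Mmrn2, Ets2 and Cldn5 passed over all probes, all at that adjusted p with the block.

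Ligands and partners of the receptors gave 0 calls in limma. Of 9 measured genes of the growth factor axis of Kdr, 5 had a difference above 0 and 4 one below 0, and the median was 0.03. Pgf, the placental growth factor that binds Flt1, read 1.01, 0.668 and 1.37 in the knockout, against 0.396, 0.301 and 0.880 in wild type. It was positive in every pair (mean log2 difference 1.05), dim, and past an unadjusted p of 0.05 with the block only (adjusted p = 0.999). Nrp2, a co-receptor, differed by -0.39 and Vegfc, the ligand of lymphatic growth, by 0.29. Among the 5 measured genes around Tek and Tie1, the ligand gene Angpt1 differed by -0.69, Angpt2 by 0.83 and Angpt4 by -0.56, all near the array medians and not past the test. Angpt4 was the 1 of the 5 without overlap, with all knockout arrays lower, against 1.74% of all probes. Ptprb, the phosphatase that restrains Tek, differed by 0.10.

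Notch components and targets of vessels were also uncalled. Of 19 measured genes, 11 had a difference above 0 and 8 one below 0. The median was 0.07, and 0 passed in limma. Dll4, the Notch ligand of sprouting tips, read 2.09, 0.741 and 1.60 in the knockout, against 2.07, 0.695 and 1.43 in wild type, which overlap. Notch4, the endothelial receptor, differed by 0.51 and Notch1 by -0.20. Efnb2, the arterial ephrin, differed by -0.70 (-0.68, -0.76 and -0.66 in the pairs) but read near the array medians, and Ephb4, its venous receptor, by 0.03. Hey1, a Notch-induced repressor that the mesoderm also expresses, differed by 0.40 and Mfng, a glycosyltransferase of Notch, by -0.23. Their unadjusted p-values with the block were 0.0130 and 0.123. The 7 measured lymphatic genes had a median of 0.17, with 5 above 0 and 2 below. Nr2f2, a venous and lymphatic factor, differed by -0.17. Ccbe1, a secreted lymphatic growth protein, differed by 0.54 and Stab2, a scavenger receptor of sinusoids, by 0.39, both below the median of every array.

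Markers of cells that accompany vessels were measured beside them. The 13 red cell genes summed to 6292 to 8504 in the knockout and 7399 to 8533 in wild type. The embryonic globin gene Hba-x read at least 1419 on every array. Klf1, the red cell master factor, read 14.4, 8.65 and 8.05 in the knockout, against 28.7, 9.77 and 9.16 in wild type. Gfi1b, a repressor of the red cell and platelet lineages, differed by -1.01 and had the smallest p of the list (0.0443 unadjusted, with the block), and Hba-a1, an alpha globin gene, differed by -0.25. The 8 measured macrophage genes summed to 40.9 to 64.7 in the knockout and 42.3 to 61.7 in wild type, with 0 calls. Their log2 differences split into 4 above 0 and 4 below, with a median of -0.24. Lyz2 differed by -0.58, Aif1 by -1.10 and Laptm5 by -0.53. For Lyz2 and Aif1, 2 of the 8, all knockout arrays lay below all wild-type arrays, against 1.74% of all probes. Above 0 were Ptprc (0.42), Fcgr3 (0.29), Mrc1 (0.11) and Adgre1 (0.05). The 11 genes of mural cells, which wrap vessels, summed to 19.1 to 35.7 in the knockout and 18.3 to 36.3 in wild type. Their median was 0.02, with 6 above 0 and 5 below. Acta2, the smooth muscle actin gene, differed by 0.83 and Anpep, an aminopeptidase gene, by 0.63. Cspg4, a pericyte proteoglycan, had the smallest p (0.0204 unadjusted, with the block). It read 2.42, 1.75 and 1.79 in the knockout, against 1.59, 0.674 and 0.719 in wild type, without overlap. It was the 1 of the 11 with all knockout arrays higher, against 2.04% of all probes. Their part in the endothelial readings was not tested.

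The genes whose 6-array pattern was most like the mean pattern of the endothelial genes were not vessel markers by name. That mean was highest on replicate 1 (0.67 and 0.65 in knockout and wild type), although Kdr, Emcn and Tal1 read lowest there. It is therefore not a pattern that the genes share. Over 7 endothelial genes above the median probe, the 5 closest of 8643 other named genes were Eif1ad, Dcaf17, Mmgt2, Abhd17a and Anapc2. Pearson's r was 0.997 to 0.999 over 6 arrays, as a description, since the arrays share the separation of replicate 1. An r over 0.95 over 6 arrays was reached by 1323 genes. Within replicates 2 and 3 alone, r of the same 5 genes was 0.983 to 0.999. They had been picked by the r over 6 arrays. Eif1ad read 11.7, 0.846 and 3.01 in the knockout, against 10.1, 1.70 and 1.44 in wild type. That is the order of Pecam1 except that wild-type replicates 2 and 3 change places.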

How the data were processed

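Total RNA of presomitic mesoderm was converted into digoxigenin-labelled cRNA and hybridised to Applied Biosystems arrays, per the labels' protocols. The labels describe a human array, whereas the probe annotation used is a mouse one. The authors deposited linear intensities that they had scaled to a common median per array. How background and flags were handled, and the software and genome build, is not given in the sources used here.

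All 6 arrays were used, 3 per genotype, grouped by their titles. Of 33012 probes, 14411 had 1 gene in the annotation, 247 several and 18354 none. The brightest probe per gene by mean log2 was taken. The deposited intensities were converted to log2 with no offset or filter. Genotypes were compared with limma 3.58.1 in R 4.3.3 (intensity trend, two-sided, Benjamini-Hochberg over all probes, threshold 0.05), without and with the replicate number as a block, and single genes also with an exact permutation test. Residual degrees of freedom were 4 and 2. The fits were also run on data simulated from the blocked fit, with changes only in probes above the median probe. That simulation does not cover dim genes, and its outcome is not given here. Python 3.11.15 with pandas 2.3.3, scipy 1.17.1 and matplotlib 3.10.9 made tables and figures.

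The fit with the block treats arrays of the same number as pairs. Deviations from the group means correlated by 0.757, 0.442 and 0.374 between arrays of the same number. Across numbers 2 and 3 the correlations were 0.419 and 0.397, so the pairing rests on the separation of replicate 1. Pairs 2 and 3 are therefore pairs by number only. The labels tie no number to a litter or day.

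The 10 genes and 15 gene lists were chosen with earlier results of these data known. Named genes are the 10, Nrarp, and in each list those past the threshold or otherwise the 3 with the smallest p in the blocked fit, plus the 5 genes most alike in pattern. Further genes of the lists, named for their role or for their replicate difference, were chosen after their values were seen. Alternatives covered the block, trend, scaling, offset, a filter on dim probes, array weights and leaving out arrays. Promoter and microRNA sequences are from RefSeq tables of build GRCm38.p6. With 3 arrays per genotype, precision is limited throughout.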

Additional observations from a re-analysis of the deposited data

How the results depend on the processing

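The measured endothelial genes gave 0 calls between genotypes under all 16 alternatives that allow a test, with 7 of the 9 tested where only probes above the median probe were kept (Cdh5 and Lyve1 were not). The count of all probes called was 0 in the fit without the block, 1 with array weights, 2 with the replicate block, 2 with the block and quantile normalization, 0 with the block and no intensity trend, and 2 within replicates 2 and 3. With single arrays left out it was 0 to 0. The block changed no call of an endothelial gene. With the block and quantile normalization 1 of the 9, Kdr, had an unadjusted limma p under 0.05 (0.0257, log2 difference -0.29, adjusted p = 0.978). The median log2 difference of the 9 genes ranged from -0.37 (without knockout replicate 1) to 0.58 (without wild-type replicate 1), which unbalances the replicates. Signs reversed for Cdh5 (0.31) and Egfl7 (-0.0060) with array weights and for Tek (-0.061) within replicates 2 and 3. With single arrays left out, the ranges were -1.05 to 1.39 for Pecam1, -0.53 to 0.80 for Tek, -0.37 to 0.87 for Tie1, -0.51 to 0.58 for Egfl7, -0.59 to 0.29 for Cdh5, -0.11 to 0.21 for Emcn and -0.61 to 0.032 for Tal1, so that each changed sign. Those of Kdr (-0.51 to -0.05) and Lyve1 (0.09 to 1.40) did not. Of the difference between replicate 1 and the others, examined after the data were seen, 7 calls fell to 3 without the intensity trend (Kdr, Tek, Emcn and Tal1 lost theirs), and to 3 to 7 with single arrays left out (3 without knockout replicate 1, 4 without wild-type replicate 1). With centring on 75th percentiles, which moved the all-probe median to -1.11, Tek and Tie1 lost their calls and Cdh5 reversed to -0.00061. Lyve1, never called, ranged from -1.57 to 0.24 with single arrays left out. Emcn lost its call when any array but wild-type replicate 2 was left out. The cause of these changes was not tested. Averaging several probes per gene was not run, as each of the 9 genes has a single named probe. Dim genes (Cdh5, Lyve1, Tie1) are limited by signal near the array median.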

Other observations

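Some vessel genes outside the 9 differed more between replicate numbers than any of the 9, and the 2 given here were chosen after their values were seen. Gja4, a gap junction gene of arterial endothelium, read 60.7 and 34.8 on replicate 1 of knockout and wild type, and 0.570 to 1.77 on the other 4 arrays. Cxcr4, a chemokine receptor of sprouting vessels that other embryonic tissues also express, read 27.3 and 20.6 on replicate 1 and 0.571 to 1.65 elsewhere. In both genes the genotypes overlapped. The log2 differences between replicate 1 and the others were 5.27 and 4.62 in the blocked limma fit (adjusted p = 5.3e-05 and 2.3e-05). On the other 4 arrays both genes read near the array medians, which limits the precision of these sizes. Among all probes 20.0% were called higher on replicate 1.

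Neighbouring tissues showed 0 calls between genotypes in limma. The 11 presomitic genes had a median log2 difference of -0.05, with 3 above 0 and 8 below (Mesp2 0.56, Tbx6 0.23, Rspo3 -0.29). Rspo3 was the 1 of the 11 without overlap, with all knockout arrays lower, against 1.74% of all probes. The 10 neural tube genes had a median of -0.02, with 4 above 0 and 6 below (Sox2 -0.46, Neurog1 -0.49, Sox3 0.64). The 10 gut genes had a median of -0.03, with 3 above 0 and 7 below (Foxa2 -0.60, Apoa1 -1.72, Cdh1 0.13). The 6 surface ectoderm genes had a median of 0.11, with 3 above 0 and 3 below (Krt14 0.36, Krt15 -0.77, Krt5 0.36). Krt14 and Krt5 were the 2 of the 6 without overlap, with all knockout arrays higher, against 2.04% of all probes. The 10 lateral plate and limb genes had a median of -0.11, with 5 above 0 and 5 below (Pitx1 0.67, Lhx9 -1.56, Gata4 0.84).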
